A study of Mus musculus with 27 samples.

Results

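The genes described here are 33 endothelial and vessel genes, taken by symbol from the 19690 genes of a read count table from irradiated mouse rectum. They were sorted by role into 25 general endothelial genes, 5 genes of tip cells and vessel remodeling (Angpt2, Apln, Aplnr, Esm1 and Dll4) and 3 mural cell genes (Pdgfrb, Rgs5 and Angpt1). All 33 were found, each in 1 row. The study modeled the damage that radiation does to the rectum, in female C57BL/6 mice (C57BL/6J in the study's methods) aged 8 to 10 weeks whose lower pelvis was irradiated with a single dose of 25 Gy X-rays under lead shielding of the rest of the body. RNA from rectal tissue was sequenced in 27 mice. Irradiated mice were taken post-irradiation (PI) in the acute phase at 4 h, at 1 day or at 3 days, in the subacute phase at 2 weeks, and in the chronic phase at 8 weeks. Controls, anesthetized and sham-irradiated, were taken at the same times except 1 day, and each of the 9 groups held 3 mice. The controls of 4 h also served the comparison at 1 day, so those 2 comparisons share their controls.

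Endothelial cells line every vessel. They are held together by VE-cadherin, PECAM1 and claudin 5, and they receive growth signals through VEGF receptors, TIE receptors and the ALK1 complex. When a vessel sprouts, the leading tip cells make DLL4, apelin, ESM1 and angiopoietin 2, while pericytes, the mural cells around the capillary, supply angiopoietin 1, which stabilizes the vessel through the receptor TEK. Angiopoietin 2 can act against angiopoietin 1 on the same receptor. Telangiectasia, a widening of small mucosal vessels, is a known late feature of irradiated rectum.

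Promoters of the members were searched for letters that they share near their start. Every member with a matching promoter was taken, called or not, so the shares do not bear on which genes moved together. RefSeq promoters (GRCm38.p6, 250 bases before to 50 after the start) matched 17 of the 33 members, with 21 sequences, and each of the 21 had 1 exact match in the mm9 genome. The letters ACAGGAA, a form of the site bound by ETS factors such as the members ERG and FLI1, were searched on both strands. They stood in 6 of the 21 member promoters (28.6%), against 8.67% of all 32851 RefSeq promoters. The core GGAA, which is part of ACAGGAA, stood in 95.2% of the member promoters and 96.0% of all, ACAAT, the core bound by SOX factors, in 38.1% and 31.0%, and the E-box CANNTG in 66.7% and 72.3%. Several promoters of 1 gene (3 each for Egfl7 and Erg) were counted separately, and a match is a description of letters only. The promoters of Esm1 and Apln are printed because these 2 genes had the largest fold changes, and those of Tie1 and Emcn as called general endothelial genes that hold the letters. Capitals mark ACAGGAA or its complement TTCCTGT, which Apln lacks in this window. In mm9 they lie at chr13:113999617-113999916 (Esm1, plus strand), chrX:45387981-45388280 (Apln, minus strand), chr4:118162405-118162704 (Tie1, minus strand) and chr3:137003792-137004091 (Emcn, plus strand).
Esm1: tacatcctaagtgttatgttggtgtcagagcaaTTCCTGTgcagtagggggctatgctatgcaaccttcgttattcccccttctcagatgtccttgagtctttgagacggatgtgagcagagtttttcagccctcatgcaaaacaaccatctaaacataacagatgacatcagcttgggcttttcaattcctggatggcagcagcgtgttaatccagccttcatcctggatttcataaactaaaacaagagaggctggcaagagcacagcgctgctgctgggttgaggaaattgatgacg
Apln: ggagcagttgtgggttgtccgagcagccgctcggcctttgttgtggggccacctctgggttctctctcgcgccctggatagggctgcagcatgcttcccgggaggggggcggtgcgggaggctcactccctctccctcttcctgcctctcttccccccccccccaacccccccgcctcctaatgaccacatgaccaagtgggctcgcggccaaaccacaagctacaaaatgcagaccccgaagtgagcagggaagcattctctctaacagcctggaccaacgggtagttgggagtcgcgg
Tie1: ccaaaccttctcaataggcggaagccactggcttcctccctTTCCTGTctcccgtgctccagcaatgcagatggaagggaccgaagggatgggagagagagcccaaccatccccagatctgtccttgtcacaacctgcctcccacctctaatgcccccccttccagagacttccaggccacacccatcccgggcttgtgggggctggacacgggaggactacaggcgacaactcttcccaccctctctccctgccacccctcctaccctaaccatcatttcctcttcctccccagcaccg
Emcn: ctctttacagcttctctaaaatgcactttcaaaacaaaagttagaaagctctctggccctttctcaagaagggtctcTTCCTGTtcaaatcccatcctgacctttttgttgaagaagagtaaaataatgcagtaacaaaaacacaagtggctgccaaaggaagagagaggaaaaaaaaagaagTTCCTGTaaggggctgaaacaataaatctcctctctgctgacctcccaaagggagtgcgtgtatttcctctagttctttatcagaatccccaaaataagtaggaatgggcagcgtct

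Libraries held 17966356 to 23281174 counts (median 19777800). Expression levels are given in CPM, read counts relative to library size with TMM factors from all 27 libraries, and folds come from edgeR's quasi-likelihood test with Benjamini-Hochberg adjustment over all genes. A gene is called, and said to rise or fall, at an adjusted p under 0.05. The defining markers of rectal tissue were present in every library: the summed CPM of 6 epithelium markers was 4766 to 11854 and that of 5 smooth muscle markers 1962 to 4908. Among the 3 irradiated mice of 2 weeks, replicate 1 had the highest CPM for 26 of the 33 members and replicate 2 the lowest for 27. At 8 weeks PI, replicate 2 was the lowest irradiated library for 28 members.

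In unirradiated rectum the vessel genes spanned a wide range of levels. Per length (FPKM, mean of the 3 controls of 8 weeks), Rgs5, a regulator of G protein signaling in pericytes, was highest at 18, followed by Cd34, a surface sialomucin, at 12.9, Plvap, the protein of fenestral diaphragms, at 10.8, and Pecam1 at 9.49. Apln at 0.166 and Esm1 at 0.0476 were the 2 lowest of the 33. In irradiated mice of 8 weeks Plvap came first at 39.5 FPKM, Esm1 stood 20th at 4.79 FPKM and Apln 23rd at 4.06 FPKM. The order of neighbours such as Cdh5 and Ramp2 at 8 weeks PI (11.1 and 11.1 FPKM) was within their spread. Control groups of different times were compared as a background. Between controls of 3 days and of 4 h no member was called by edgeR or DESeq2. With edgeR none of the 14464 genes tested was called either. An unadjusted p under 0.05 stood in 3 of 32 members tested, against 15.9% of all genes. Controls of 2 weeks had higher Dll4 (log2 fold change 0.77, adjusted p = 0.0308) and lower Notch4 (-0.79, adjusted p = 0.0157) than those of 4 h, and controls of 8 weeks had higher Ramp2 (0.87, adjusted p = 0.0486) and Dll4 (0.70, adjusted p = 0.0489), against 6.61% of all genes called at 2 weeks (2.94% higher and 3.67% lower) and 2.82% at 8 weeks (1.29% higher and 1.53% lower). Controls of 8 weeks lay above those of 4 h without overlap for 7 members, against 14.1% of all genes. Controls of 2 weeks did so for 9 of 31 members tested, against 16.5% of all genes, and lay below for 2, against 15.4%. The median log2 fold change of the members was 0.22 at 2 weeks, against 0.01 over all genes, with 28 of 31 positive. At 8 weeks it was 0.08, against 0.003. The 4 calls are weak, since at 2 weeks leaving out control 2w replicate 1 or 2 left 0 of them, and at 8 weeks neither was called when any 1 control library was left out (adjusted p 0.0609 to 0.185).

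At 4 h PI 31 members were tested and 3 called, 2 higher and 1 lower, against 11.5% of all genes called (5.78% higher and 5.72% lower). Robo4, a receptor that stabilizes endothelial barriers, rose (6.59, 7.85 and 5.23 CPM in irradiated mice, against 3.06, 2.93 and 3.97 CPM in controls, log2 fold change 0.96 ± 0.24 SE, adjusted p = 0.0352). Mmrn2, an extracellular matrix protein made by endothelium, also rose (15.2, 16.3 and 18.1 CPM, against 10.9, 9.57 and 9.60 CPM, 0.70 ± 0.14, adjusted p = 0.0154). The PDGF receptor gene Pdgfrb of pericytes and fibroblasts fell (11.4, 14.3 and 13.4 CPM, against 21.0, 20.1 and 16.6 CPM, -0.58 ± 0.15, adjusted p = 0.0381). Without overlap 6 of the 31 members tested lay above controls and 2 below, against 19.0% and 15.3% of all genes. Among them were these 3 called genes. None of the 3 was called without irradiated 4h replicate 2 (adjusted p 0.0510 to 0.1205), and Robo4 and Pdgfrb were also lost without irradiated 4h replicate 1 (0.0934 and 0.114) and without control 4h replicate 1 or 2, and Pdgfrb without irradiated 4h replicate 3 (0.0862). At 1 day PI Mmrn2 alone of 32 members tested was called (37.0, 21.3 and 26.2 CPM in irradiated mice, against 10.9, 9.57 and 9.60 CPM in the shared controls of 4 h, 1.48 ± 0.21, adjusted p = 0.00745), against 4.0% of all genes (1.97% higher and 2.03% lower). Apln had 1.26, 1.22 and 1.29 CPM in irradiated mice at that time, against 0.255, 0.293 and 0.805 CPM in controls, which missed the threshold (1.45 ± 0.48, adjusted p = 0.153). Other markers moved in these hours: 5 of 5 proliferation markers fell at 4 h and 2 of 5 at 1 day, and 2 and 3 of 7 leukocyte markers fell. Their part was not tested.

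At 3 days PI 7 of 32 members tested were called, 6 higher and 1 lower, against 20.5% of all genes called (10.4% higher and 10.1% lower). The median log2 fold change was 0.40, against 0.001 over all genes, and 13 members lay above controls without overlap, against 22.2% of all genes. Mmrn2 (24.7, 23 and 37.9 CPM in irradiated mice, against 7.89, 8.86 and 11.6 CPM in controls) and Eng, the TGF-beta co-receptor endoglin (17.6, 18 and 23.3 CPM, against 8.25, 8.51 and 10.5 CPM), rose by log2 fold changes of 1.56 ± 0.23 and 1.08 ± 0.17 (adjusted p = 0.00378 and 0.00513). Kdr, the main VEGF receptor, rose with 19.0, 13.4 and 13.1 CPM in irradiated mice, against 6.91, 6.79 and 4.29 CPM in controls (1.31 ± 0.24, adjusted p = 0.0083), but against the controls of 4 h the call was lost (0.60 ± 0.19, adjusted p = 0.0558). Notch4, a Notch receptor of endothelium, had 28.2, 24.1 and 27.9 CPM, against 19.2, 15.5 and 15.5 CPM (0.65 ± 0.13, adjusted p = 0.0119). Plvap and Apln were also called, at 0.60 ± 0.13 and 1.88 ± 0.55 (adjusted p = 0.0159 and 0.0443). In these 6 genes every irradiated library lay above every control. Of the 6, Apln passed the filter on low counts through the irradiated mice (65, 41 and 40 counts, against 21, 14 and 4 in controls of 3 days). Its test was thus open to it because it was high there. Clec14a, a C-type lectin of endothelium, was the only member that fell, with 13.8, 11.5 and 13.7 CPM in irradiated mice, against 26.4, 27.0 and 26.5 CPM in controls (-1.06 ± 0.12, adjusted p = 0.00108), and it also fell against the controls of 4 h (-0.74, adjusted p = 0.00611). The length deposited for Clec14a, 8807 bases, exceeds its gene in the mm9 annotation (chr12:59365707-59370245, minus strand, 4539 bases, 1 exon), so its counts may include reads outside that gene model. At this time same-numbered libraries deviated together, and with the replicate block 11 members were called, 10 higher and 1 lower, adding Cdh5, Cd34, Flt1 and Nos3. Apln lost its call when any 1 of irradiated 3d replicates 1 to 3 or control 3d replicates 2 and 3 was left out (adjusted p 0.0515 to 0.163), and without irradiated 3d replicate 1 Plvap and Notch4 were lost too, leaving 4 calls. Red cell RNA moved at the same time: the 4 hemoglobin and heme genes summed to 0.0995 to 0.202 CPM in irradiated mice of 3 days, against 5.76 to 15.7 CPM in controls. Only 2 of the 4 were tested, and both fell. They passed the filter on low counts through the controls alone, in which they were high. Mast cell markers summed to 261 to 381 CPM in irradiated mice, against 35.1 to 54.4 CPM in controls, and fibroblast markers to 695 to 833 CPM, against 384 to 482 CPM, with 1 of 2 tested and 2 of 5 called higher. Of the mural cell markers and further endothelial genes outside the members 2 of 5 tested and 4 of 12 rose. The part of the other cell types in these results was not tested.

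**Figure D1:**
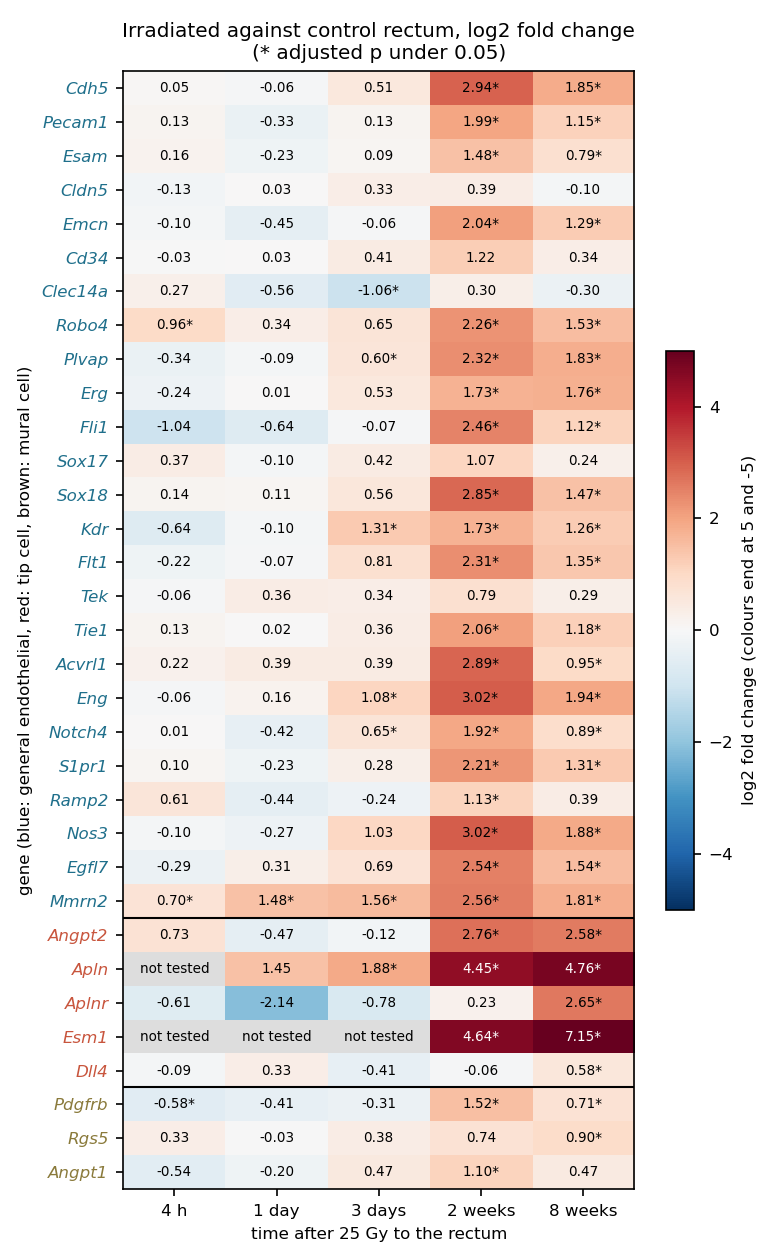
Log2 fold change of the 33 vessel genes (rows) in irradiated against control rectum at 5 times PI (columns), with red for higher and blue for lower in irradiated mice and an asterisk where the adjusted p was under 0.05. The acute phase shows 3, 1 and 7 asterisks in its columns, the subacute phase 25 and the chronic phase 26, and Mmrn2 is the 1 gene called higher at all 5 times.

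At 2 weeks PI most vessel genes were higher. Of the 33 members 25 rose and 0 fell, against 16.5% of all genes called higher and 9.3% called lower, and the median log2 fold change was 2.04, against -0.002 over all genes tested. The groups did not overlap for 28 members, all with irradiated mice above controls, against 25.6% of all genes. By class, 20 of 25 general endothelial genes, 3 of 5 tip cell genes and 2 of 3 mural cell genes rose, with median log2 fold changes of 2.06, 2.76 and 1.10. In a piece of tissue more cells of a type and more RNA per cell cannot be told apart, so these values do not separate more vessels from more transcript per endothelial cell.

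Cdh5, which encodes VE-cadherin, the adhesion molecule of endothelial junctions (chr8:106625525-106668402), had 134, 68.7 and 101 CPM in irradiated mice of 2 weeks, against 14.6, 12.6 and 11.9 CPM in controls. The groups were far apart, and the log2 fold change was 2.94 ± 0.26 (adjusted p = 0.00301). Pecam1, a junctional adhesion molecule also found on platelets and leukocytes, had 187, 104 and 143 CPM, against 40.8, 38.4 and 29.2 CPM (1.99 ± 0.24, adjusted p = 0.00447). The surface genes Plvap (2.32), Robo4 (2.26), Emcn, an endothelial sialomucin (2.04), and Esam, a tight junction molecule (1.48), rose as well, with adjusted p between 0.00301 and 0.0128. Cldn5, the claudin of tight endothelial junctions, did not pass: 11.2, 6.44 and 9.67 CPM in irradiated mice overlapped 6.87, 6.32 and 7.46 CPM in controls (0.39 ± 0.24, adjusted p = 0.263). Cd34 (1.22 ± 0.43, adjusted p = 0.0782) and Clec14a (0.30 ± 0.21, adjusted p = 0.312) also missed the threshold. The junction and surface genes thus spanned log2 fold changes of 0.30 (Clec14a) to 2.94 (Cdh5). The deposited length of Esam is 5732 bases, against 2867 annotated exon bases, so its counts and FPKM carry the same doubt as those of Clec14a.

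Among the transcription factors Sox18 (log2 fold change 2.85), Fli1 (2.46) and Erg (1.73) rose, the last 2 being ETS factors that hold endothelial identity, while Sox17, a factor of arterial endothelium, had 5.15, 3.02 and 6.09 CPM, against 1.77, 2.61 and 2.35 CPM (1.07 ± 0.34, adjusted p = 0.0596). Both VEGF receptors rose. Kdr had 39.3, 26.2 and 36.9 CPM in irradiated mice, against 11.2, 10.3 and 8.96 CPM in controls (1.73 ± 0.20, adjusted p = 0.00385), and Flt1, a receptor that traps VEGF and binds PlGF, had 75.6, 38.6 and 52.7 CPM, against 13.5, 10.1 and 9.71 CPM (2.31 ± 0.28, adjusted p = 0.00428). The 2 TIE receptors differed in size. The orphan receptor Tie1 rose by 2.06 ± 0.23 (adjusted p = 0.00355), and Tek, the receptor of the angiopoietins, had 20.3, 12.5 and 17.2 CPM, against 11.0, 10.3 and 7.36 CPM, and missed the threshold (0.79 ± 0.24, adjusted p = 0.055) although its groups did not overlap. Eng (3.02) and Acvrl1, which encodes ALK1 (2.89), the 2 parts of the receptor complex for BMP9 whose loss causes hereditary telangiectasia in humans, were among the 4 general endothelial genes with the largest changes. Acvrl1 spread widely, at 85.9, 35.9 and 159 CPM in irradiated mice, against 12.8, 12.9 and 11.9 CPM in controls. Nos3, the endothelial nitric oxide synthase, rose by 3.02, Mmrn2 by 2.56, Egfl7, a secreted endothelial factor, by 2.54, the sphingosine 1-phosphate receptor S1pr1 by 2.21, Notch4 by 1.92 and Ramp2, a co-receptor for adrenomedullin, by 1.13. Against the controls of 4 h the fold of Notch4 was smaller (1.11, adjusted p = 0.00399), since Notch4 was low in the controls of 2 weeks. Nos3 shares 294 exon bases in the annotation with Atg9b on the other strand, and Atg9b rose by 5.45 (adjusted p = 0.00528). Eng shares 124 exon bases with Ak1 on the same strand, which rose by 1.76 (adjusted p = 0.00826). Ramp2 shares 1103 exon bases with Vps25 on the same strand. Vps25 had 46.0 to 48.5 CPM in irradiated mice of 2 weeks and was not called (0.03, adjusted p = 0.824). Atg9b rose again at 8 weeks (6.88) and so did Ak1 (1.81). Atg9b held 507 counts over the irradiated mice of 2 weeks, against 11 in controls, and 1270 at 8 weeks, against 10. At both times it passed the filter on low counts through the irradiated mice alone, in which it was high, so the size of its folds is poorly fixed. The sources used here do not state whether counting used strand, so reads of Nos3 and Atg9b cannot be told apart in the shared bases. Strand would not separate Eng from Ak1 or Ramp2 from Vps25.

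Of the tip cell genes, Esm1, which encodes endocan, a proteoglycan secreted by tip cells (chr13:113999867-114008306), had 3.83, 3.02 and 2.47 CPM in irradiated mice of 2 weeks, against 0.202, 0.1 and 0.0501 CPM in controls. Apln, the peptide apelin (chrX:45378323-45388030), had 8.12, 8.18 and 9.57 CPM, against 0.505, 0.401 and 0.250 CPM. These 2 genes had the largest changes of the 33 members, at log2 fold changes of 4.64 ± 0.50 (adjusted p = 0.0034) and 4.45 ± 0.31 (adjusted p = 0.00278). Esm1 rests on 188 counts in the irradiated group, against 7 in the control group, a ratio of 24.9 per total count with a 95% exact interval of 11.8 to 62.8 that covers counting error only. It passed the filter on low counts through the irradiated mice alone. Angpt2, the angiopoietin stored in endothelium (chr8:18690263-18741562), had 35.9, 21.3 and 32.9 CPM, against 4.95, 3.96 and 4.26 CPM (2.76 ± 0.24, adjusted p = 0.00301). Against the controls of 4 h Esm1 stood at 4.01 and Angpt2 at 3.69. The other 2 tip cell genes did not pass. Aplnr, the apelin receptor, had 5.2, 2.33 and 2.71 CPM in irradiated mice, against 1.57, 4.26 and 2.80 CPM in controls (0.23 ± 0.47, adjusted p = 0.745), and Dll4, the Notch ligand of tip and arterial cells, had 17.3, 14.5 and 15.7 CPM, against 17.6, 13.4 and 17.9 CPM (-0.06 ± 0.17, adjusted p = 0.822). The deposited length of Dll4, 6006 bases, exceeds its 3852 annotated exon bases.

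Of the mural cell genes Pdgfrb had 57.4, 32.5 and 35.9 CPM in irradiated mice, against 14.9, 17.2 and 11.5 CPM in controls (1.52 ± 0.26, adjusted p = 0.0111). Angpt1, the angiopoietin of mural cells, had 10.6, 5.50 and 5.27 CPM, against 3.08, 3.66 and 3.10 CPM (1.10 ± 0.32, adjusted p = 0.0482). Rgs5 had 204, 95.7 and 69.1 CPM, against 76.2, 74.2 and 68.4 CPM, and its groups overlapped (0.74 ± 0.37, adjusted p = 0.185). Calls close to the threshold depended on single libraries. Without control 2w replicate 1 the calls of Esam, Fli1, Acvrl1, Ramp2, Pdgfrb and Angpt1 were lost (adjusted p 0.0509 to 0.145), without control 2w replicate 3 those of Esam, Fli1, Acvrl1, Ramp2 and Angpt1 (0.0540 to 0.1395), without control 2w replicate 2 those of Acvrl1, Ramp2 and Angpt1 (0.0503 to 0.112), without irradiated 2w replicate 1 those of Ramp2 and Angpt1, and without irradiated 2w replicate 3 that of Ramp2. Without irradiated 2w replicate 2, 29 members were called, with Cldn5, Cd34, Sox17 and Tek added.

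**Figure D2:**
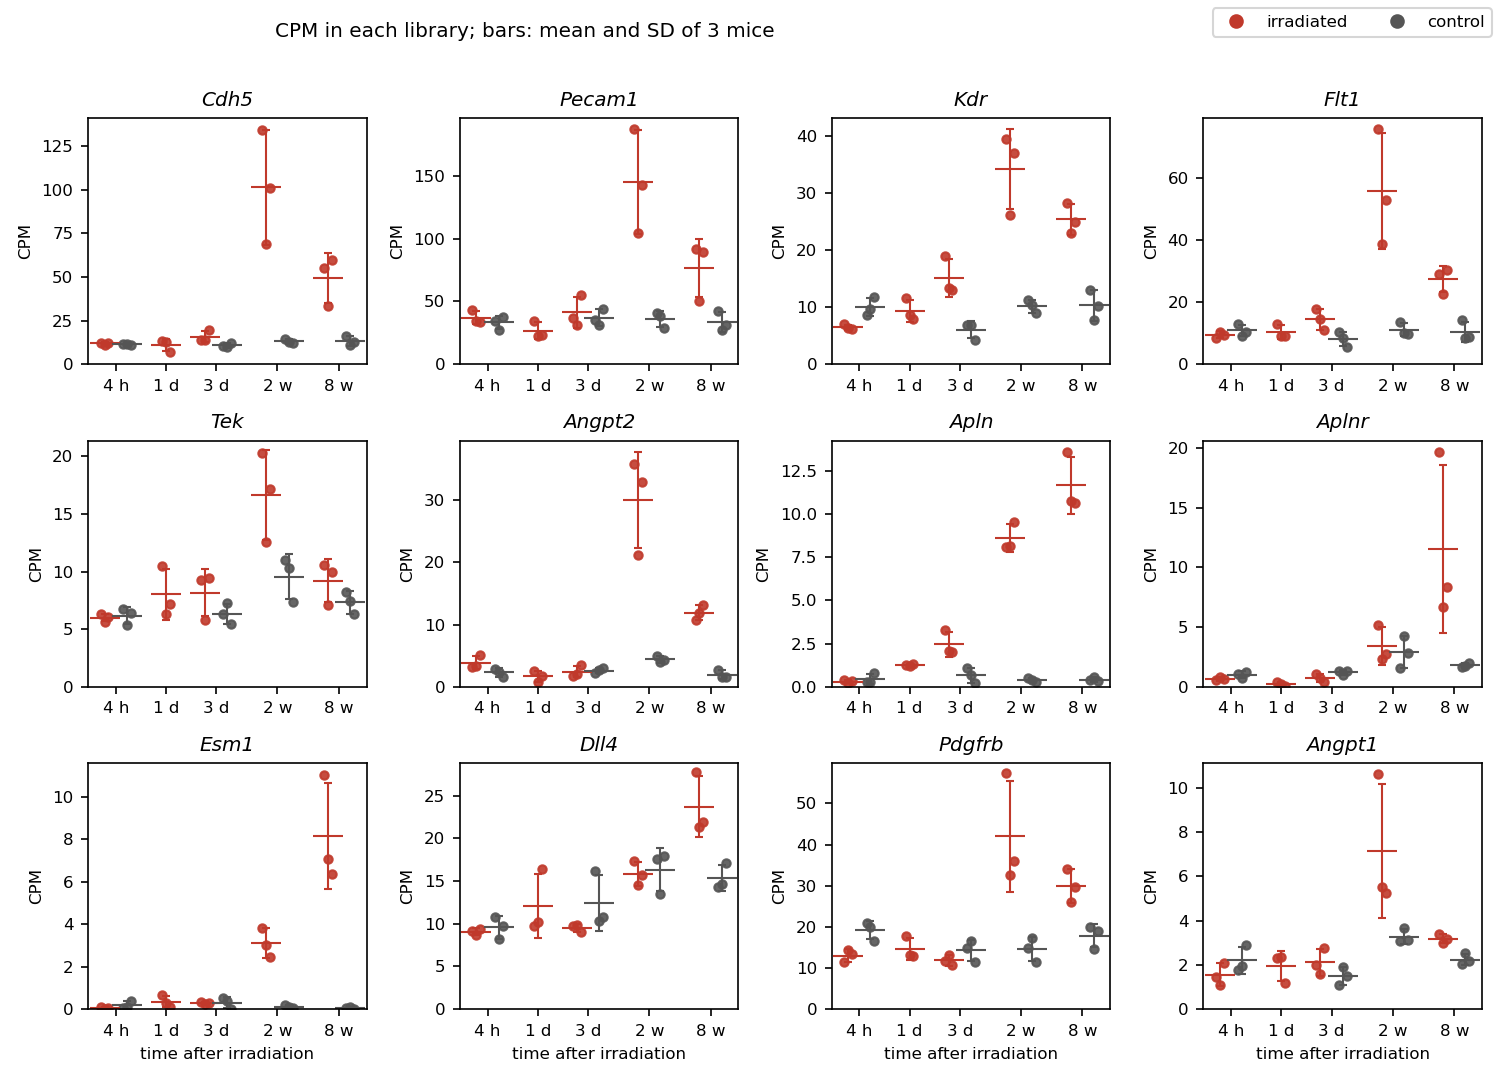
CPM of 12 vessel genes (panels) in each of the 27 libraries, by time PI, with irradiated mice in red left of controls in grey, the horizontal mark at the mean and the bar 1 SD of 3 mice. Cdh5, Pecam1, Kdr and Flt1 are highest in the irradiated mice of 2 weeks, while Esm1, at 11.0, 7.07 and 6.35 CPM, and Aplnr are highest in those of 8 weeks, and Dll4 is near its controls at 2 weeks.

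The step between the acute and the subacute phase was tested directly. The signed log2 fold change was higher at 2 weeks than at 3 days for 21 of 33 members and lower for 0, against 10.2% and 6.96% of all genes. The log2 difference was 2.43 ± 0.32 for Cdh5 (adjusted p = 0.00163) and 2.87 ± 0.39 for Angpt2 (adjusted p = 0.00173). Esm1, also among the 21, entered this test through the irradiated mice of 2 weeks, in which it was high. Clec14a counts among the 21 because it had fallen at 3 days (-1.06) and was not called at 2 weeks (0.30). Kdr and Mmrn2, called at both times, were not among the 21. The calls of Robo4, Erg, Flt1, S1pr1 and Apln, and no others, were lost when 1 library was left out (16 to 24 members called).

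At 8 weeks PI 26 of 33 members were higher and 0 lower, against 38% of all genes called (21.5% higher and 16.5% lower). The median log2 fold change was 1.26, against 0.01 over all genes, and 27 members had every irradiated library above every control, against 29.9% of all genes. Of the members called at 2 weeks 23 were also called at 8 weeks (92.0% of the 25 and 88.5% of the 26). Over all genes 76.9% of those called higher at 2 weeks were called higher at 8 weeks, and 57.7% the other way. By class, 19 of 25 general endothelial genes rose with a median of 1.26, 5 of 5 tip cell genes with a median of 2.65, and 2 of 3 mural cell genes with a median of 0.71.

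In 24 of the 25 general endothelial genes the fold was smaller than at 2 weeks, though no such difference passed its own test with edgeR. Cdh5 had 54.9, 33.4 and 59.9 CPM in irradiated mice of 8 weeks, against 16.4, 10.9 and 12.8 CPM in controls (1.85 ± 0.25, adjusted p = 0.00119). Pecam1 had 91.4, 50.3 and 89.1 CPM, against 42.7, 26.9 and 31.6 CPM (1.15 ± 0.26, adjusted p = 0.0117). Kdr had 28.3, 23 and 24.9 CPM, against 13.1, 7.73 and 10.1 CPM (1.26 ± 0.20, adjusted p = 0.00232), and Flt1 29.0, 22.7 and 30.4 CPM, against 14.2, 8.32 and 8.78 CPM (1.35 ± 0.23, adjusted p = 0.00311). In each of these 4 genes the groups were separate. The largest changes of the class were those of Eng (1.94), Nos3 (1.88), Cdh5, Plvap (1.83), Mmrn2 (1.81) and Erg (1.76), and the smallest among the called were those of Acvrl1 (0.95), Notch4 (0.89) and Esam (0.79). Tek again missed the threshold, with 10.5, 7.07 and 9.996 CPM in irradiated mice overlapping 8.19, 7.48 and 6.27 CPM in controls (0.29 ± 0.22, adjusted p = 0.322). Cldn5 (-0.10), Cd34 (0.34), Clec14a (-0.30), Sox17 (0.24) and Ramp2 (0.39) were the other general endothelial genes not called, with adjusted p between 0.212 and 0.767. Apart from Ramp2, these had not been called at 2 weeks either.

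All 5 tip cell genes were higher at 8 weeks PI. Esm1 had 11.0, 7.07 and 6.35 CPM in irradiated mice, against 0.0493, 0.0991 and 0 CPM in controls (7.15 ± 0.57, adjusted p = 0.000143). Here too it passed the filter on low counts through the irradiated mice alone, so that test was open to it only because it was high there. The group held 497 counts, against 3 over the control group, a ratio of 174 with a 95% exact counting interval of 59.1 to 845, so the size of this fold is poorly fixed. Esm1 lies in a span that overlaps Gzmk on the other strand without sharing exon bases, and Gzmk had 2 counts over the irradiated mice of 8 weeks. Apln had 13.6, 10.8 and 10.6 CPM, against 0.395, 0.545 and 0.301 CPM (4.76 ± 0.29, adjusted p = 5.31e-05), and at 2 and 8 weeks it too passed the filter through the irradiated mice, the controls holding 23 and 25 counts over 3 mice. Aplnr (chr2:84976517-84980079), not called at 2 weeks, had 19.6, 6.67 and 8.37 CPM in irradiated mice of 8 weeks, against 1.63, 1.73 and 2.01 CPM in controls (2.65 ± 0.44, adjusted p = 0.00292). Angpt2 had 10.7, 11.9 and 13.2 CPM, against 2.71, 1.49 and 1.61 CPM (2.58 ± 0.27, adjusted p = 0.000383). Dll4 had 27.8, 21.4 and 21.9 CPM, against 14.4, 14.7 and 17.1 CPM, the smallest change of the class (0.58 ± 0.15, adjusted p = 0.0179). Against the controls of 4 h the log2 fold changes were 5.42 for Esm1, 3.54 for Aplnr, 1.3 for Dll4 and, among the general endothelial genes, 2.35 for Egfl7 and 2.44 for Sox18, and each call held.

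Of the mural cell genes Rgs5 had 151, 108 and 102 CPM in irradiated mice of 8 weeks, against 74.0, 52.4 and 61.3 CPM in controls (0.90 ± 0.19, adjusted p = 0.00786), and Pdgfrb had 34.2, 25.9 and 29.7 CPM, against 19.98, 14.7 and 18.9 CPM (0.71 ± 0.16, adjusted p = 0.0107). Angpt1 had 3.40, 3.01 and 3.15 CPM, against 2.02, 2.53 and 2.16 CPM, and was not called (0.47 ± 0.24, adjusted p = 0.168) although the groups were separate. The 2 ligands of TEK thus had log2 fold changes of 2.58 (Angpt2) and 0.47 (Angpt1), a gap between genes that was not tested. Leaving out control 8w replicate 2 ended the calls of Pecam1, Esam, Sox18 and Dll4 (adjusted p 0.0522 to 0.0852), leaving out control 8w replicate 3 those of Pecam1, Esam, Sox18 and Tie1 (0.0507 to 0.0851), and leaving out control 8w replicate 1 that of Dll4 (0.0693). No call was lost without any 1 irradiated library of 8 weeks.

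**Figure D3:**
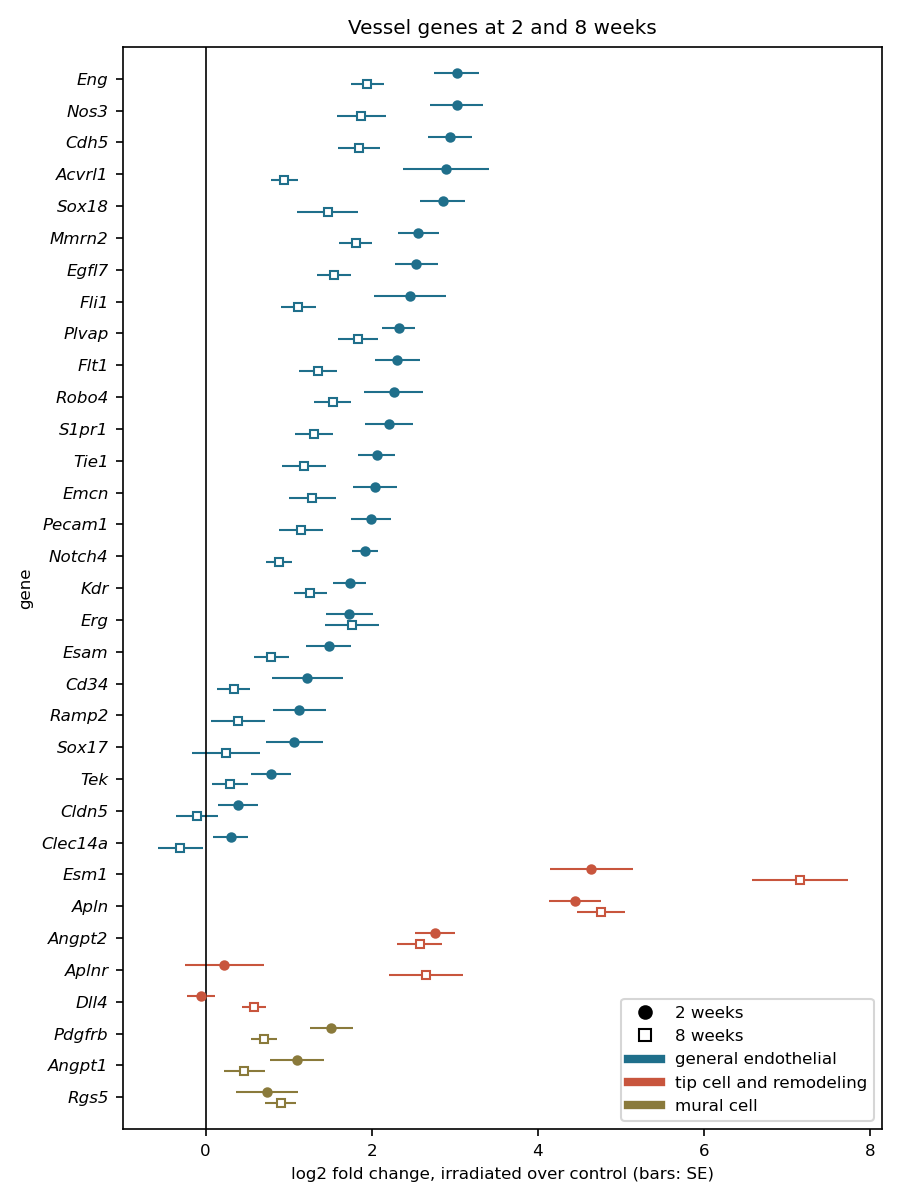
Log2 fold change of irradiated over control mice at 2 weeks (filled circles) and 8 weeks (open squares) for the 33 vessel genes, coloured by class, with bars of 1 SE. In 24 of the 25 general endothelial genes, all but Erg, the square lies left of the circle, and in 4 of the 5 tip cell genes, all but Angpt2, it lies right of it.

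The radiation effect at 8 weeks was then set against that at 2 weeks. The difference was negative for 24 of 25 general endothelial genes (all but Erg, 0.04 ± 0.43), with a median of -0.83, and positive for 4 of 5 tip cell genes, with a median of 0.65, against -0.02 over all genes. None of the 33 differences passed edgeR's test, where 1.28% of all genes did (0.784% positive and 0.495% negative). At an unadjusted p under 0.05 stood 16 members, against 16.4% of all genes, 13 of them negative and 3 positive, namely Aplnr, Dll4 and Esm1. The values were 2.43 ± 0.68 for Aplnr (adjusted p = 0.115), 2.52 ± 0.90 for Esm1 (adjusted p = 0.201), -1.94 ± 0.56 for Acvrl1 (adjusted p = 0.126) and -1.02 ± 0.23 for Notch4 (adjusted p = 0.0545). For Notch4 the controls moved as well, with means of 42.1 CPM in irradiated mice and 11.1 CPM in controls at 2 weeks, and 34.6 CPM in irradiated mice and 18.2 CPM in controls at 8 weeks. DESeq2 called 3, with Aplnr larger and Acvrl1 and Notch4 smaller at 8 weeks, and without irradiated 2w replicate 2, the lowest library for most members, edgeR called 6 (Cdh5, Fli1, Acvrl1, Eng, Notch4 and Egfl7, all smaller at 8 weeks). Without control 8w replicate 2 it called Notch4. The opposite signs of the general and the tip cell genes are therefore given as a description, and the classes were chosen with such results known.

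The levels relative to Cdh5 in the same library show which members moved more or less than VE-cadherin. Esm1 stood at 0.106 to 0.212 of the Cdh5 CPM in irradiated mice of 8 weeks, against 0 to 0.00909 in controls, and at 0.0244 to 0.0440 in irradiated mice of 2 weeks, against 0.00420 to 0.0138. Apln stood at 0.178 to 0.323 of Cdh5 at 8 weeks PI, against 0.0235 to 0.05, and at 0.0604 to 0.119 at 2 weeks PI, against 0.0210 to 0.0345. Angpt2 was above its control ratios at 8 weeks (0.195 to 0.356, against 0.125 to 0.165), while at 2 weeks the ratios overlapped (0.267 to 0.326, against 0.313 to 0.357). No general endothelial gene had higher ratios than controls in every library at either time. In that class only Eng and Nos3 had larger folds than Cdh5 at 2 and at 8 weeks. The choice of reference therefore largely set this outcome, and it does not separate the classes. Of the 24 other general endothelial genes 18 at 2 weeks and 15 at 8 weeks had lower ratios in every irradiated library, and so had all 3 mural cell genes at both times. Over all genes tested 90.2% at 2 weeks and 78.8% at 8 weeks had lower ratios without overlap, since Cdh5 itself rose, and 2.57% and 4.65% had higher ratios. Tek had 0.151 to 0.183 of Cdh5 in irradiated mice of 2 weeks, against 0.618 to 0.817 in controls, and Rgs5 had 0.684 to 1.52, against 5.2 to 5.87. Dll4, although called higher at 8 weeks, stood at 0.366 to 0.641 of Cdh5, against 0.874 to 1.35. The ratios carry no test, and a choice of another reference gene would shift all of them together.

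**Figure D4:**
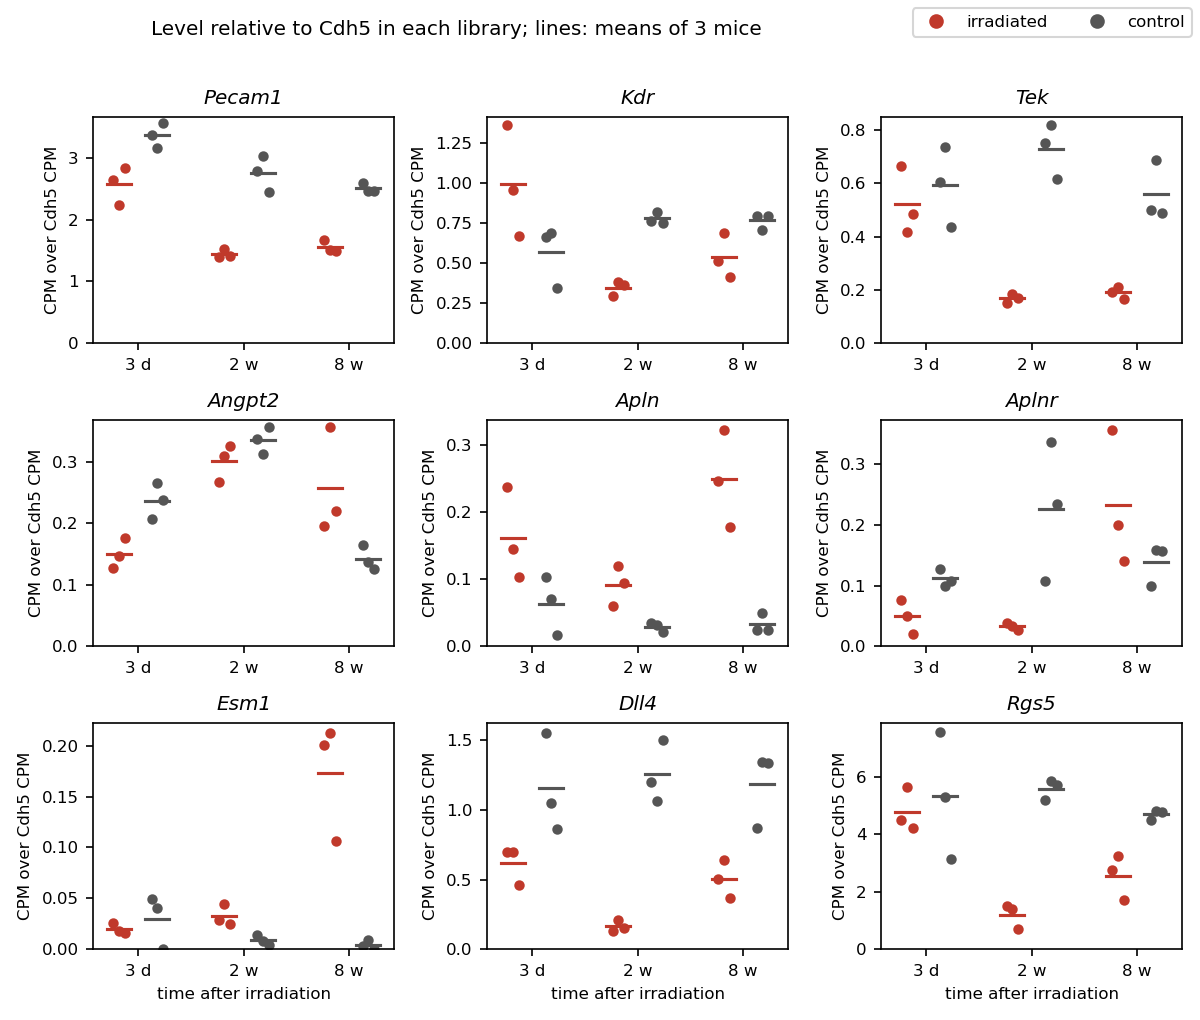
CPM of 9 vessel genes divided by the CPM of Cdh5 in the same library, from 3 days to 8 weeks PI, with irradiated mice in red left of controls in grey and lines at the means of 3 mice. Esm1 and Apln lie above their controls at 2 and 8 weeks and Pecam1, Tek, Dll4 and Rgs5 below, with Esm1 at 0.106 to 0.212 in irradiated mice of 8 weeks.

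Summed over each class, the general endothelial genes reached 782 to 1389 CPM in irradiated mice of 2 weeks, against 229 to 282 CPM in controls, and 483 to 702 CPM at 8 weeks PI, against 236 to 324 CPM. The tip cell genes summed to 49.3 to 70.3 CPM at 2 weeks PI, against 22.2 to 25.3 CPM, and to 57.8 to 82.7 CPM at 8 weeks PI, against 18.5 to 21.0 CPM. At 3 days the general endothelial sums were 299.75 to 403 CPM in irradiated mice, against 237 to 286 CPM in controls, and the tip cell sums overlapped, at 14.8 to 16.2 CPM in irradiated mice and 15 to 21.3 CPM in controls.

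Genes of the same pathways outside the 33 were counted from lists. Over all genes 16.5% were called higher and 9.3% lower at 2 weeks, and 21.5% higher and 16.5% lower at 8 weeks. These shares apply to every list count from here on. The lists are short, and counts near these shares say little about a pathway or cell type. Of 12 further endothelial genes 10 rose at 2 weeks and 8 at 8 weeks, among them Podxl, a sialomucin (1.87), and Adgrf5, an adhesion receptor (2.24), at 2 weeks, and Ecscr (1.42) and Mcam (1.10), both surface molecules, at 8 weeks. Of 6 VEGF ligands and co-receptors 3 rose at each time. Vegfa, the principal ligand of KDR, had 64.5, 75.1 and 110 CPM in irradiated mice of 2 weeks, against 87.3, 73.4 and 76.6 CPM in controls (0.06 ± 0.22, adjusted p = 0.85), and 56.6, 113 and 103 CPM at 8 weeks PI, against 93.9, 93.7 and 84.8 CPM (-0.05 ± 0.23, adjusted p = 0.891). Pgf, the ligand PlGF that binds FLT1, rose at 2 weeks (6.31, 3.97 and 4.4 CPM in irradiated mice, against 0.202, 0.351 and 0 CPM in controls, 4.67 ± 0.73, adjusted p = 0.00854) and at 8 weeks (2.77, 3.46 and 2.36 CPM, against 0.0987, 0.446 and 0.151 CPM, 3.55 ± 0.53, adjusted p = 0.00179). The co-receptor Nrp1 rose by 1.48 and 1.36. Pgf, at 0 to 0.446 CPM in these controls, passed the filter on low counts through the irradiated mice alone, in which it was high. Vegfa was not called at either time, and the 2 ligand genes were not compared by a test. Of 8 hypoxia genes, Vegfa among them, 2 rose at 2 weeks (Hif1a, 1.48, and Pgk1, 0.64) and Ankrd37 fell (-1.85), and at 8 weeks none was called.

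Of 9 Notch and ephrin genes Jag1, a ligand that opposes DLL4, rose at 2 weeks (0.91) and 8 weeks (1.65), Jag2 (2.14) and Nrarp (0.59) rose at 8 weeks, and Efnb2, a marker of arterial endothelium that epithelium also makes, fell at 8 weeks (-0.75). Among 8 adrenomedullin, sphingosine and Slit genes 4 rose and 1 fell at 2 weeks, and 6 rose and 2 fell at 8 weeks. Slit3, a ligand of the ROBO family, had 210, 107 and 165 CPM in irradiated mice of 2 weeks, against 13.2, 17.2 and 9.16 CPM in controls (3.59), and rose by 2.64 at 8 weeks. Sphk1, a kinase that makes sphingosine 1-phosphate, rose by 3.63 and 3.05, and Unc5b, a netrin receptor that binds ROBO4, fell at both times (-0.71 and -0.96). Of 5 ALK1 ligands and targets tested Bmp4 rose at 2 weeks (1.45) and Smad7 fell at 8 weeks (-1.04), while Acvrl1 and Eng rose at both times. Of 6 mural cell markers tested outside the members 5 rose at each time. Kcnj8, a potassium channel subunit of pericytes, rose by 2.49 at 2 weeks, Notch3, the Notch receptor of mural cells, by 2.78 at 8 weeks, and Ndufa4l2 by 2.25 at 2 weeks and 4.56 at 8 weeks. Of 6 lymphatic markers Flt4, also counted among the VEGF genes above (1.39), and Prox1 (0.72) rose at 2 weeks and 0 fell, and at 8 weeks Reln (-0.77), Lyve1 (-0.42) and Mmrn1 (-0.57) fell and 0 rose.

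Markers of other cell types also moved at 2 and 8 weeks. Their counts stand against 16.5% of all genes called higher and 9.3% lower at 2 weeks, and 21.5% and 16.5% at 8 weeks. At 2 weeks 5 of 7 leukocyte markers rose, with summed levels of 609 to 3223 CPM in irradiated mice, against 65.5 to 104 CPM in controls. The lowest irradiated sum was that of replicate 2, also the lowest library for most vessel genes. The highest was that of replicate 3 (3223 CPM, against 2177 CPM in replicate 1), while replicate 1 was highest for 26 of the 33 vessel genes. Replicate 3 was highest for 6 of the 33, among them Acvrl1 and Fli1. At 8 weeks 5 of 7 rose again, with 448 to 508 CPM, against 98.4 to 135 CPM. There replicate 1 had the lowest irradiated sum (448 CPM, against 474 CPM in replicate 2), while replicate 2 was lowest for 28 vessel genes. Fibroblast markers rose in 4 of 5 and 5 of 5 cases, with 3490 to 6624 CPM at 2 weeks PI, against 562 to 1038 CPM, and 2753 to 3465 CPM at 8 weeks PI, against 498 to 647 CPM. Platelet markers rose in 2 of 3 tested cases at each time and summed to 112 to 158 CPM at 2 weeks PI, against 53.3 to 64.3 CPM, and 137 to 636 CPM at 8 weeks PI, against 99.7 to 111 CPM. Between the controls of 4 h and those of 2 or 8 weeks only 2 platelet markers were tested. Not all 3 would thus have passed the filter on low counts without the irradiated mice. Of 6 epithelium markers none was called at 2 weeks (4766 to 8161 CPM, against 8673 to 9062 CPM) and 5 fell at 8 weeks (5609 to 6868 CPM, against 9514 to 10735 CPM). Smooth muscle markers fell in 2 of 5 cases at 2 weeks (2464 to 2841 CPM, against 3472 to 4908 CPM) and 1 of 5 at 8 weeks (2595 to 3393 CPM, against 2996 to 3502 CPM). Mast cell markers rose in 4 of 5 cases at 8 weeks and in 0 of 4 tested at 2 weeks. Between controls of 8 weeks and 4 h only 2 of the 5 passed the filter on low counts. The others entered the test at 8 weeks through the irradiated mice, so some of the 4 calls were open only to markers high there. Glia and nerve markers rose in 2 of 5 cases at each time (51.9 to 100.1 CPM at 2 weeks PI, against 31.3 to 41.9 CPM, and 37.5 to 70.4 CPM at 8 weeks PI, against 23.3 to 32.3 CPM), and 2 of 5 proliferation markers rose at 8 weeks. No listed leukocyte, fibroblast, platelet, epithelium or smooth muscle marker was at 0 in all libraries of an irradiated group of 2 or 8 weeks. Fli1, Pecam1 and Cd34 are made by leukocytes, platelets or fibroblasts as well as endothelium, and the part of these other cells in the vessel gene values was not tested.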

How the data were processed

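Rectal RNA of 27 mice (poly(A) selection, NEBNext Ultra, Illumina HiSeq) was sequenced by the study. The authors deposited read counts per gene and FPKM values on mm9, and the submitters' processing notes name fastp 0.18.0, HISAT2, StringTie 1.3.1 and RSEM. The sources used here do not give the counting program, its strand setting or the annotation. Library totals were 17966356 to 23281174 counts, which leaves genes below 1 CPM with few counts. Groups came from the sample labels.

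Counts were fitted with edgeR 4.0.16 in R 4.3.3 (TMM scaling, filterByExpr, quasi-likelihood test) on the groups compared, with Benjamini-Hochberg adjustment over all genes. Differences between times were interaction terms. Deposited FPKM values served for levels between genes and, as log2(FPKM + 1) and log2(FPKM + 0.1), for limma 3.58.1. DESeq2 1.42.0, total count scaling, no filter, all 9 groups, the replicate block, the controls of 4 h in place of the matched ones, and leaving out each library were the other alternatives. The fitting code was tested on simulated data. Python 3.11.15, pandas 2.3.3, numpy 2.4.6, scipy 1.17.1 and matplotlib 3.10.9 were used for summaries, intervals and plots. With 3 mice against 3 an exact permutation test cannot go below p = 0.1, so none was used. P-values measure the spread between these mice.

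The members and lists were chosen with earlier results of these data known. All 33 members could be named, with values per library for the tip cell genes and 8 chosen members at 2 and 8 weeks and for up to 4 called members per direction at earlier times, and pathway lists gave up to 2 genes per direction with the smallest p, plus Vegfa. Other members and list genes, and the values per library of Acvrl1, Cldn5, Sox17, Pgf and Slit3, were given after their values were seen. Same-numbered irradiated and control libraries of 3 days deviated together (r = 0.3426, 0.413 and 0.4263, other pairs at most 0.0667), so the replicate block is given there. Of 114 list genes 5 were not analysed here.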

Additional observations from a re-analysis of the deposited data

Results flagged for a closer look

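The radiation effect differed between 2 weeks and 3 days by the interaction test of edgeR (adjusted p under 0.05) for 21 vessel genes. In each the signed log2 fold change was higher at 2 weeks. Among junction and surface genes the differences were 2.43 for Cdh5, 1.85 for Pecam1, 1.39 for Esam, 2.09 for Emcn, 1.36 for Clec14a, 1.61 for Robo4 and 1.72 for Plvap. For the transcription factors Erg and Sox18 they were 1.20 and 2.28. Among receptors and signaling genes they were 1.49 for Flt1, 1.70 for Tie1, 2.50 for Acvrl1, 1.94 for Eng, 1.26 for Notch4, 1.91 for S1pr1, 1.99 for Nos3 and 1.84 for Egfl7. The tip cell genes Angpt2, Apln and Esm1 differed by 2.87, 2.57 and 4.66, and the mural cell gene Pdgfrb by 1.82. Clec14a was called at 3 days, where it was lower, and not at 2 weeks. Esm1 entered the test through the irradiated mice of 2 weeks, in which it was high.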

How the results depend on the processing

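No called vessel gene reversed under any alternative. At 2 weeks 18 of the 25 called members and at 8 weeks 20 of the 26 kept their call in all those run for them, which were 15 of 17 for Esm1 at 2 weeks because it was filtered out of 2. Leaving out 1 library gave 0 to 4 calls at 4 h, 1 to 1 at 1 day, 4 to 9 at 3 days, 19 to 29 at 2 weeks, 22 to 27 at 8 weeks, 16 to 24 for 2 weeks minus 3 days, 0 to 6 for 8 weeks minus 2 weeks, and, between controls, 0 to 0 for 3 days, 0 to 2 for 2 weeks and 0 to 1 for 8 weeks against 4 h. At 4 h limma gave 1 call with either pseudocount and 0 with no filter, and the replicate block and the fit of all 9 groups 1 each. At 1 day limma with no filter gave 0 and the fit of all 9 groups 2. At 3 days limma gave 4 with either pseudocount, and the controls of 4 h gave 11 calls. For 8 weeks minus 2 weeks DESeq2 gave 3, limma with a pseudocount of 1 gave 1 with or without a filter, and the fit of all 9 groups 4. Between controls of 2 weeks and 4 h DESeq2 gave 4 and limma 0 in each form, and between those of 8 weeks and 4 h limma gave 1 with either pseudocount, while total counts, limma with no filter, the replicate block and the fit of all 9 groups gave 0. The causes were not tested.

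The replicate block gave 11 calls at 3 days, 23 at 2 weeks, 26 at 8 weeks and 20 for 2 weeks minus 3 days, and at times other than 3 days same-numbered libraries shared only a number. With total count scaling the median log2 fold change of all genes at 8 weeks was 0.14, against 0.01 with TMM. The share of calls that were higher was 70.5%, against 56.6% with TMM. That share was 61.9%, against 50.8%, at 3 days, 46.7%, against 59.4%, for 2 weeks minus 3 days, and 77.8%, against 61.3%, for 8 weeks minus 2 weeks. Depth limits Esm1 and Apln in controls, where 3 mice together held 3 to 25 counts at 2 and 8 weeks.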
